A study of Hydra vulgaris with 32 samples.

Results

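The 63 loci described here lost signal in untreated, unfed Hydra between day 4 and day 11 of starvation and stood, after colchicine, between 0.45 and 2 times their level in the day 11 controls. They were chosen by measured values, out of 25879 loci into which the deposited sequence names group the transcripts. A member had to have a control day 4 mean of at least 130 normalized counts and a control day 11 mean of at most 0.7 times that mean. Every day 11 library had to lie below every day 4 library, the day 7 mean had to lie below the day 4 mean, and the colchicine mean had to lie between 0.45 and 2 times the control day 11 mean. Of 10028 loci at or above the level, 253 met the ratio, 212 of these had libraries that did not overlap, 211 were also lower on day 7, and 63 met the colchicine bounds as well. The decline in controls and the bounds on the colchicine level are thus what the loci were picked for, and both are given below as a description with no test. The bounds are wide: 22 members lay within 0.8 times control day 11 and its inverse after colchicine, 15 were at or below 0.7 times and 16 at or above 1.5 times.

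Hydra is a small freshwater polyp whose body column is made of an outer and an inner epithelial layer with interstitial stem cells and their derivatives, the nerve cells, stinging cells and gland cells, among them. Its epithelial and interstitial stem cells cycle continuously in fed animals, and unfed animals stop budding and slowly shrink while keeping their body plan. Gland cells of the inner layer make the secreted enzymes with which prey is digested. Hydroxyurea blocks DNA synthesis and colchicine blocks spindle formation, and both have long been used to deplete the fast cycling interstitial cells of Hydra. In the Sf-1 strain, a thermosensitive mutant, the interstitial cells are lost when the animals are kept warm.

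The 32 libraries come from central body columns of Sf-1 polyps without the apical and basal regions, so every group, controls included, carries the mutation and was left unfed once the experiment began. Hydroxyurea (HU) animals were kept in 10 mM of the drug 3 times for 24 h, with 12 h without it in between, and were sampled on days 4, 5, 7 and 11, with 3 libraries each. Heat-shocked (HS) animals were held at 28 °C for 62 h and gave 4 libraries, and colchicine (COL) animals were exposed to 0.4% for 8 h and gave 3; both were sampled on day 9 after the start of treatment and after 11 days of starvation. Untreated controls gave 3 libraries each on days 4, 5 and 7 and 4 on day 11. Days of starvation and days spent in the experiment cannot be told apart in the controls. The labels do not say whether replicates are separate cultures, so p-values measure the spread between these libraries.

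Levels are the authors' normalized counts, summed per locus, and are called signal below. Estimated counts totalled 23.6 M to 36.6 M in 30 libraries and 15.2 M and 13.1 M in colchicine replicates B and C. The 3 colchicine libraries also stood further apart, with a mean correlation to their own group of 0.909 to 0.935, against 0.966 to 0.985 in the other 29 libraries. One locus that is not a member, loc01654, took between 0.486% and 17.3% of all counts of a library. In replicates A its share was at most 2.46%, and some libraries of other letters were as low. No pair of replicates agreed within sampling noise. None of the 63 locus names matched the 28925 genes of the RefSeq table used here, so the loci are given by identifier only, without gene names, roles or sequences, and the tissue could not be checked against markers.

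In controls the median of the members was lower on each later day. The median member stood at 0.879 times its day 4 level on day 5, 0.754 times on day 7 and 0.661 times on day 11, where the lowest was at 0.160 times and the highest at 0.6999 times. The same medians over all 10028 loci of the level were 0.993, 0.977 and 0.974. The day 5 libraries were not used to choose the members, but they are read against day 4 and day 11 libraries that were. On day 5, 62 of 63 members lay below their day 4 mean, beside 54.1% of the loci of the level, and 61 lay between their day 4 and day 11 means, beside 57.8%. The rule set a gap between day 4 and day 11 in the members that most loci of the level lack. These shares are thus not alike and only describe the members. In 54 members the control mean was lower at every step, and in 7 the day 7 mean was at or below the day 11 mean. The rule asked for days 7 and 11 below day 4, so part of this order was set by the choice. Falls at every step were not counted over the loci of the level. In whole-tissue RNA, fewer cells of a type and less RNA per cell cannot be told apart.

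**Figure D1:**
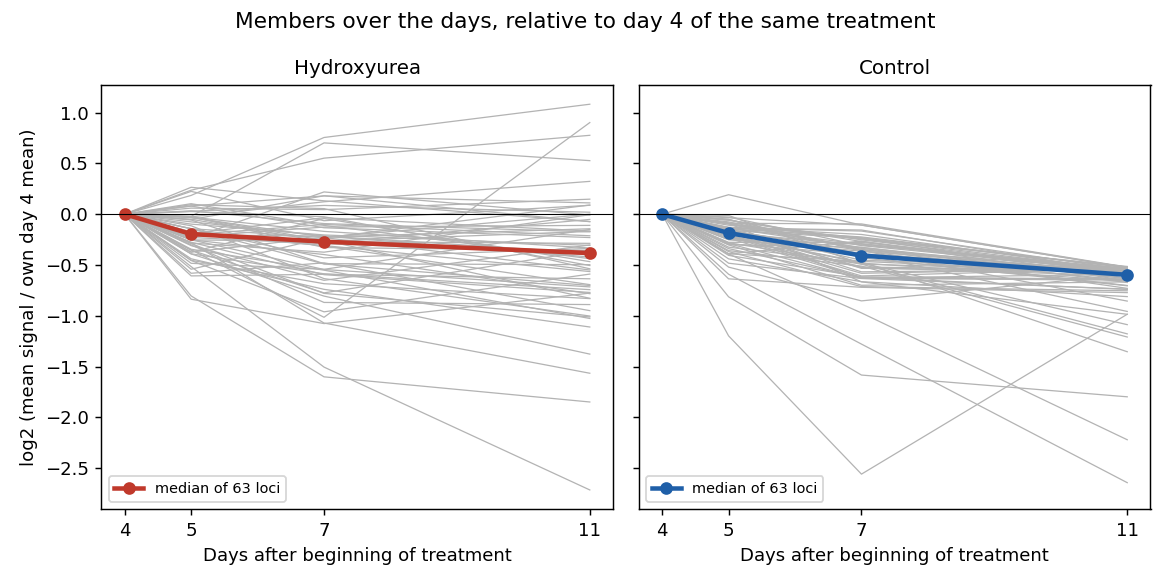
Mean signal of each of the 63 members as log2 of the ratio to day 4 of the same treatment (vertical axis) against day (horizontal axis), for HU and for control animals. Grey lines are members and the coloured line is the median over members. The control lines all end at or below a ratio of 0.7 by choice, with a median of 0.661, whereas the HU lines spread between 0.152 and 2.12 times with a median of 0.767.

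Values close to the thresholds show how fine the choice is. Locus loc20763 was kept with a day 11 mean of 132 and a day 4 mean of 189, a ratio of 0.69994, and loc06553 with 102 on day 11 and 146 on day 4, a ratio of 0.697. Just outside, loc11354 had 177 on day 11 and 253 on day 4, a ratio of 0.70002, and loc23317 had a ratio of 0.701. At the level bound loc22648 was kept with a day 4 mean of 133 and loc03285 with 138, while loc18414 with 127 and loc13089 with 122 were left out. Of the other 148 loci that met the control criteria, 107 had less than 0.45 times the control day 11 level after colchicine and 41 had more than 2 times.

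The members are built from 304 deposited sequences. A single sequence makes up 17 members, the other 46 hold 2 to 39, and the median is 3, as it is for all loci of the level. In 35 members the top sequence carried over 90% of the control day 4 signal. Of 94 sequences that carried more than 10% of a member, 90 were lower on control day 11 than on day 4, and 76 were at or below 0.7 times. These control values are the ones the members were chosen by, and 35 of the 94 are the single such sequence of their member, so the counts only describe the make-up.

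The HU animals give a series of the same 4 days in libraries that the choice of members did not use. The summed signal of all 63 members averaged 157050.0 ± 15472 in HU animals on day 4, 140185 ± 15667 on day 5, 118920.0 ± 5766 on day 7 and 117977 ± 4345 on day 11, each with its SD. In controls it averaged 127480.0 ± 5138 on day 4, 108852 ± 6985 on day 5, 90715 ± 7691 on day 7 and 71957 ± 5229.6 on day 11. The HU sum was thus about level between its last 2 days, while the control sum was lower at each step. The summed signal of the members other than the 6 highest averaged 69376 ± 10164 in HU animals on day 4, 57335 ± 4882 on day 5, and 45005 ± 965 on day 7 (n = 3 libraries each, ± SD). By day 11 it averaged 39740 ± 1620 in HU animals (SD, n = 3). In controls the same sum averaged 54869 ± 3227 on day 4, 44157 ± 2102 on day 5, and 34628 ± 3274 on day 7 (n = 3 libraries each, ± SD), and by day 11 it averaged 29620 ± 1550 (SD, n = 4). Without the 6 highest, the sum was lower on each later day in both series. With loc08580 left out too, it averaged 37075 ± 1105 on day 11 and 51876 ± 8278 on day 4 in HU animals, and 28102 ± 1623 on day 11 and 49591 ± 2844 on day 4 in controls. Member by member, the median ratio to HU day 4 was 0.873 on day 5, 0.83 on day 7 and 0.767 on day 11, against 0.993, 0.974 and 0.979 over the loci of the level. On day 11, 52 members were below their HU day 4 mean and 11 above, 24 were at or below 0.7 times and 22 lay within 0.8 times and its inverse. Of 10025 loci of the level with this ratio, 5477 were below and 4548 above. Among these loci 1018 were at or below 0.7 times and 7290 within 0.8 times and its inverse. In HU animals 28 members went down at every step, which was not counted over the loci of the level. Across the 63 members, log2 ratios of day 11 to day 4 were compared between HU and control animals. The Pearson r was 0.29 and the Spearman rho -0.04, with normalization shared by all libraries. The rule cut the control ratio at 0.7, and its quartiles over the members were 0.601 and 0.680. With so narrow a range, these values cannot decide whether depth of loss was related in the 2 series.

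Between HU day 11 and HU day 4, the edgeR test called 17 of 63 members (27.0%) lower and 0 higher, with p adjusted over 17107 loci and a threshold of 0.05. The background was 5.78% of all loci tested lower and 2.60% higher, and among loci of the level 8.46% lower and 3.52% higher. The median log2 fold change of the members was -0.36, with 50 of 63 negative, beside 0.03 over all loci tested and -0.01 over loci of the level. At an unadjusted p under 0.05, 29 members were lower and 2 higher, beside 1507 and 1022 of the 10028 loci of the level. DESeq2 called 22 members lower and 2 higher, beside 1239 and 604 of 25130 loci. With replicates B, C and D alone, 9 members were lower, of 691 loci lower among 16756 tested. The members' median log2 fold change was then -0.22, with 44 of 63 negative, a smaller shift than with all replicates. By HU day 7, 9 members (14.3%) were lower than on HU day 4 and 0 higher, with a median log2 fold change of -0.26. The background there was 4.40% lower and 1.41% higher over all loci tested, and 6.68% lower and 2.05% higher over loci of the level. At an unadjusted p under 0.05, 24 members were lower on HU day 7 and 3 higher, beside 1410 and 813 of the 10028 loci of the level. DESeq2 called 12 members lower and 0 higher, beside 978 and 416 of 25130 loci. Of the 9 members lower on HU day 7, 8 were also among the 17 lower on day 11. Both comparisons share the HU day 4 libraries, so these calls are not independent. The overlap over all loci was not counted.

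**Figure D2:**
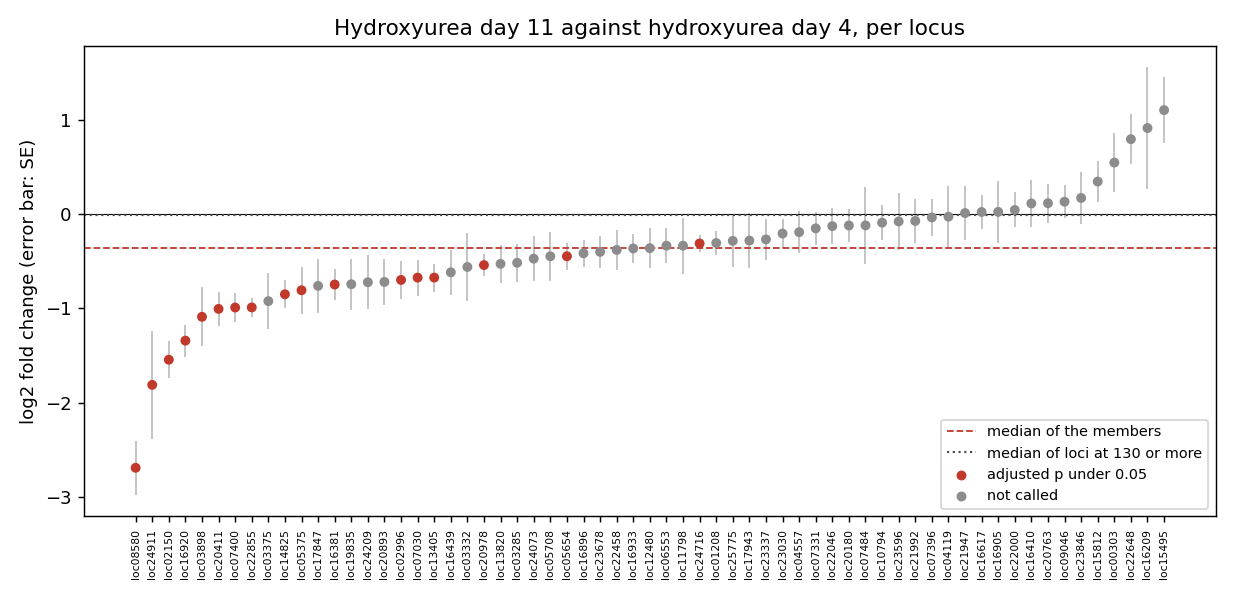
Log2 fold change of HU day 11 over HU day 4 with its SE (vertical axis) for each of the 63 members, ordered by that value (horizontal axis), in red where called and in grey where not; dashed and dotted lines mark the medians of the members, -0.36, and of the loci of the level, -0.01. The 17 members called lower reach from -0.31 to -2.69, and none is called higher.

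Some loci left out by the colchicine bounds were also called lower with time in HU animals. Of the 107 loci that fell in controls and stood below 0.45 times control after colchicine, 35 (32.7%) were lower on HU day 11 than on HU day 4 and 0 higher, with a median log2 fold change of -0.45. Of the 41 that stood above 2 times control after colchicine, 6 (14.6%) were lower and 3 higher, with a median of -0.17. Most loci of both sets were not called, and the background over loci of the level was 8.46% lower and 3.52% higher. The differences between these sets were not tested.

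**Figure D3:**
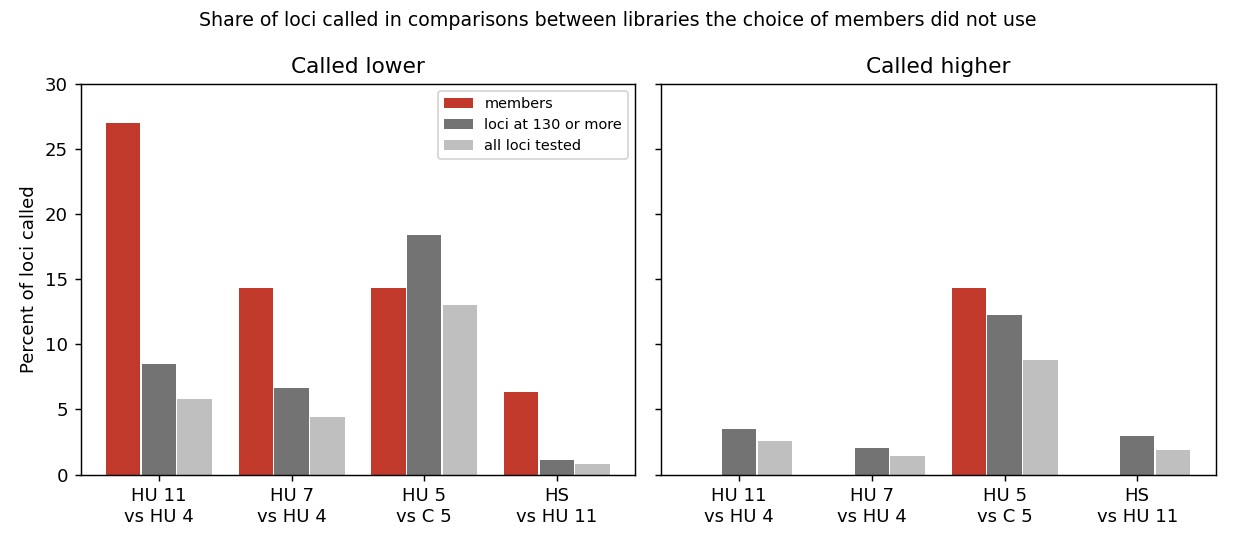
Percent of loci called (vertical axis), lower in the left panel and higher in the right panel. Loci are the 63 members, the loci of the level and all loci tested. The 4 comparisons (horizontal axis) contrast no library of the selection, though spread was estimated over all libraries. The members stand at 27.0% lower beside 5.78% of all loci for HU day 11 over HU day 4, and at 14.3% each way for HU day 5 over control day 5.

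Locus loc08580 fell the most of the 17. Its signal in HU animals was 20285, 14471 and 17746 on day 4, 9367, 13948 and 13399 on day 5, 4098, 9142 and 5251 on day 7 and 1603, 4063 and 2329 on day 11. Every HU day 11 library lay below every HU day 4 library, and the log2 fold change was -2.69 ± 0.28 (SE, adjusted p = 5.24e-07). The HS libraries held 1576, 1452, 1285 and 1294 and the COL libraries 1906, 2404 and 2453. In controls it was 4909, 4164 and 6759.9 on day 4, 2648, 2894 and 3468 on day 5, 1422, 1954 and 1906 on day 7 and 1365, 1473, 1649 and 1584 on day 11. HU animals thus held more of it than controls on day 5, by a log2 fold change of 2.03 ± 0.28 (adjusted p = 2.82e-06), where its HU mean was 4.08 times control; by day 11 it was 1.76 times.

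Nearly the whole change of loc08580 sat in 1 of its sequences, seq20264_loc08580_vl0050002. That sequence held 19463, 13072 and 16382 in HU animals on day 4 and 469, 3109 and 1237 on day 11, and 93.9, 155, 182 and 68.5 in the HS libraries. In controls it held 4168, 2866 and 5455 on day 4 and 46.9, 17.5, 99 and 44.5 on day 11, so the day 4 mean was 80.1-fold the day 11 mean, compared with 10.2-fold in HU animals. It made up 90.3% to 95.9% of the locus in HU day 4 libraries and 68.8% to 84.9% in control day 4 libraries. On day 11 its share was 29.2% to 76.5% in HU libraries and 1.19% to 6.01% in control libraries. The other main sequence, seq20261_loc08580_tr0311838, averaged 1060 ± 94 on HU day 11 and 1195 ± 323 on HU day 4, and 1401 ± 128 on control day 11 and 1115 ± 323 on control day 4 (SD, n = 3, and n = 4 on control day 11). Its values did not share the loss, and how reads were divided between sequences of a locus was not tested.

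**Figure D4:**
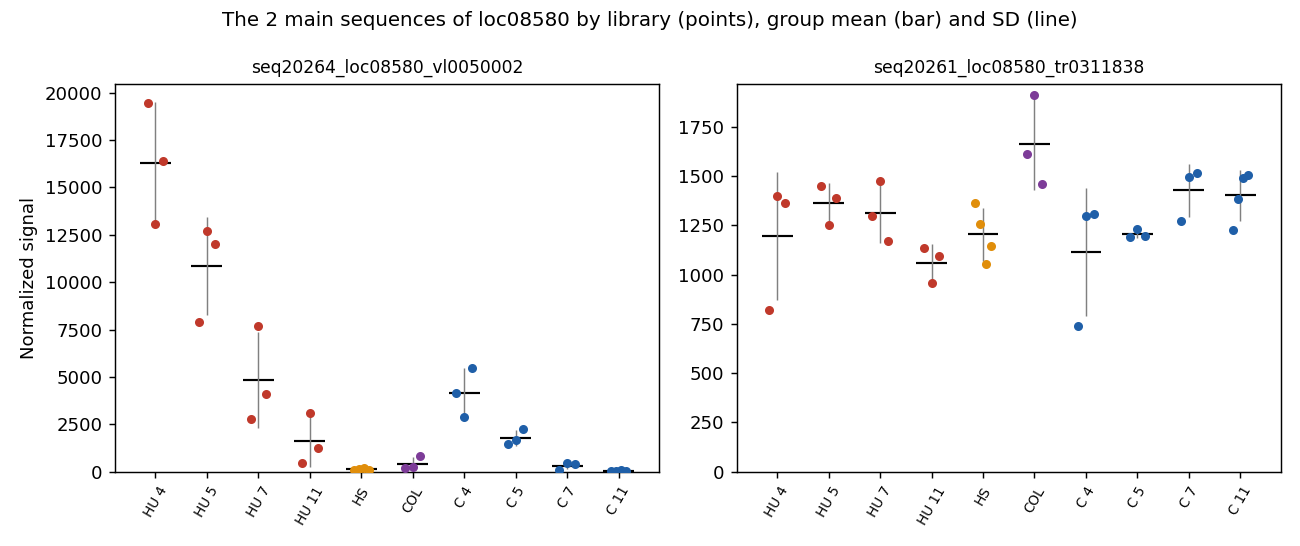
Signal of the 2 main sequences of loc08580 (vertical axes, each with its own scale) by group (horizontal axis); points are libraries, bars the group mean and lines the SD. For seq20264 the HU day 11 libraries lie between 469 and 3109 and the control day 11 libraries between 17.5 and 99.0, while the group means of seq20261 lie between 1060 and 1660.

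Several members fell in HU animals from a level that was already different from control. Locus loc16920 held 139, 169 and 134 on HU day 11 and 452, 316 and 382 on HU day 4, a log2 fold change of -1.34 ± 0.17 (adjusted p = 3.68e-06). On day 5 it held 344, 241 and 292 in HU animals and 979, 891 and 967 in controls, a log2 fold change of -1.67 ± 0.16 (adjusted p = 9.67e-09). The groups did not overlap in either comparison, and the control libraries of day 11, at 680.1, 653, 602 and 619.5, remained above the HU libraries of day 4. Locus loc20411 behaved alike, with 155, 193 and 169.7 on HU day 11 and 362, 362 and 330.0 on HU day 4 (log2 fold change -1.01 ± 0.18, adjusted p = 0.000376). On day 5 loc20411 held 311, 248 and 271 in HU animals and 608, 651 and 699.8 in controls (log2 fold change -1.23 ± 0.18, adjusted p = 8.01e-06). In both loci HU animals were lower than controls on day 5 and lower again with time. Locus loc02996 was lower in both comparisons too, with 223, 151 and 187 on HU day 5 and 565, 514 and 573 on control day 5, and log2 fold changes of -0.70 with time in HU animals (adjusted p = 0.0292) and -1.54 against control day 5 (adjusted p = 1.31e-06). The call of loc02996 with time was made in 10 of 14 alternative settings, and those of loc16920 and loc20411 in all 14. The signals of loc02996, loc20411 and loc16920 ran together over all 32 libraries, with Pearson r of log2 signal from 0.955 to 0.973 between pairs. Whether these loci share reads was not tested.

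Locus loc02150 fell in HU animals from a day 4 mean that was 1.32 times that of controls. It held 9373, 6882 and 7979.8 in HU animals on day 4, 7256, 5726 and 6962 on day 5, 4167, 3755 and 3607 on day 7 and 2806, 2816 and 2562 on day 11, and the drop to day 11 was a log2 fold change of -1.55 ± 0.20 (adjusted p = 4.08e-06). The drop to HU day 7 had a log2 fold change of -1.06 (adjusted p = 0.000533). HS libraries held 2961, 2187, 3067 and 2201, and the control libraries held 4739, 4183, 3726 and 3626 on day 11 and 6599.7, 6676 and 5118 on day 4. By day 11 the HU libraries all lay below the control libraries of the same day. Locus loc22855 held 327, 289 and 359 on HU day 11 and 653, 684 and 631 on HU day 4, with little spread and a log2 fold change of -0.99 ± 0.10 (adjusted p = 4.25e-07).

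Locus loc03898 was the reverse in level, higher in HU animals than in controls while falling in both. It held 214, 238 and 237 on HU day 11 and 544, 488 and 456 on HU day 4 (log2 fold change -1.09 ± 0.31, adjusted p = 0.0263). On day 5 it held 341, 404 and 352 in HU animals and 160.4, 214 and 197 in controls (log2 fold change 0.95 ± 0.32, adjusted p = 0.0307). Each of these calls of loc03898 was made in 8 of 14 alternative settings. Colchicine libraries held 75.1, 6.36 and 61.6, a wide spread in the group with the fewest reads. Locus loc24911, whose control ratio of 0.160 is the lowest of the members, held 284, 97.8 and 83.8 on HU day 11 and 724, 683 and 271 on HU day 4, and these overlapped. Its log2 fold change of -1.81 ± 0.58 (adjusted p = 0.0488) was called in 4 of 14 alternative settings. In controls loc24911 held 124, 76.4, 88.2 and 138 on day 11 and 453, 458 and 1090.0 on day 4. It was the only one of the 17 called members whose HU day 11 and HU day 4 libraries overlapped.

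The 6 members with the highest control day 4 signal did not pass the test between HU day 11 and HU day 4. Locus loc23030, the highest, held 22894, 17202 and 20691 on HU day 11 and 26612, 21802 and 22881 on HU day 4, which overlapped (log2 fold change -0.21 ± 0.15, adjusted p = 0.547). In controls it held 13433, 13991, 12359.6 and 14006 on day 11 and 19407, 19774 and 18761 on day 4. Locus loc23846 held 18199, 17372 and 23358 on HU day 11 and 19102, 19719 and 14364 on HU day 4 (log2 fold change 0.17 ± 0.27, adjusted p = 0.852), against 5948, 6890.3, 5126 and 8365 on control day 11 and 13801, 13319 and 17572 on control day 4. HS libraries of loc23846 reached 37902, 16415, 18312 and 26054, and COL libraries 4322, 3029.5 and 5333. The HS libraries were all above the control day 11 libraries, and the COL libraries overlapped with those controls at their lower end. Locus loc07484, below these 6 in control signal, held 6142, 6412 and 7235 on HU day 11 and 10242, 7022 and 4597 on HU day 4 (log2 fold change -0.12 ± 0.41, adjusted p = 0.945), against 1576, 1349, 962 and 2511 on control day 11 and 7589, 6825 and 7957 on control day 4. Its HU change was 0.26 on the log2 scale with replicates B, C and D alone and 0.20 without HU day 4 replicate A. Its mean on day 11 was 4.12 times control in HU animals, and its HS mean was 5.13 times the control day 11 mean, the highest such ratio among the members. The HS libraries of loc07484 held 15354, 4456, 4728 and 8253, so replicate A raised that mean. The control day 11 values under both ratios were among those that chose the members. A test that is not passed does not show that the levels were equal on both days.

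Within 2 of the high loci the sequences differed. In loc23846, seq71875_loc23846_tr0509080 and seq71876_loc23846_vl0114755 stood at 0.225 and 0.260 times their day 4 level in controls on day 11, while seq71881_loc23846_vl0046591 stood at 1.03 times. In loc23030, seq68773_loc23030_vl0097813 averaged 200 ± 79 after colchicine and 6840 ± 673 in day 11 controls, whereas seq68769_loc23030_tr0638051 averaged 4783 ± 632 after colchicine and 2742 ± 175 in day 11 controls (SD, n = 3 and n = 4). The 2 sequences thus differed in opposite directions, and the locus as a whole stood at 0.596 times its control day 11 mean after colchicine.

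The other high members were loc11798, loc17943, loc16896 and loc16617. On HU day 11, loc11798 held 13362, 10530.0 and 9323, against 15531, 14566 and 12440.5 on HU day 4, and loc17943 held 10317, 8246 and 8199, against 11996, 10459 and 10559. The HU day 7 libraries, at 8243, 8825 and 7794 for loc11798 and 7184, 7068 and 6772 for loc17943, lay below all of these. The difference from HU day 4 did not pass the test (adjusted p = 0.155 for loc11798 and 0.254 for loc17943), and HU day 11 was not tested against HU day 7. The pair ran together over all 32 libraries, with a Pearson r of log2 signal of 0.977, the highest between members. Locus loc16896 held 6419, 8071 and 8011 on HU day 11 and 9504, 10808 and 10167 on HU day 4 without overlap, but its log2 fold change of -0.42 ± 0.15 missed the threshold (adjusted p = 0.0776). It passed in 4 alternative settings. Locus loc16617 held 9039, 11462 and 12013 on HU day 11 and 10305, 10891 and 11314 on HU day 4 (log2 fold change 0.02 ± 0.18, adjusted p = 0.982; its sign changed in 4 alternative settings), and 3775, 4898, 5792 and 6388 on control day 11 and 7785, 6907 and 8275 on control day 4. Locus loc03332 split its HU day 11 libraries, with 1024, 576 and 425 beside 968, 1087 and 993 on HU day 4 (adjusted p = 0.456).

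**Figure D5:**
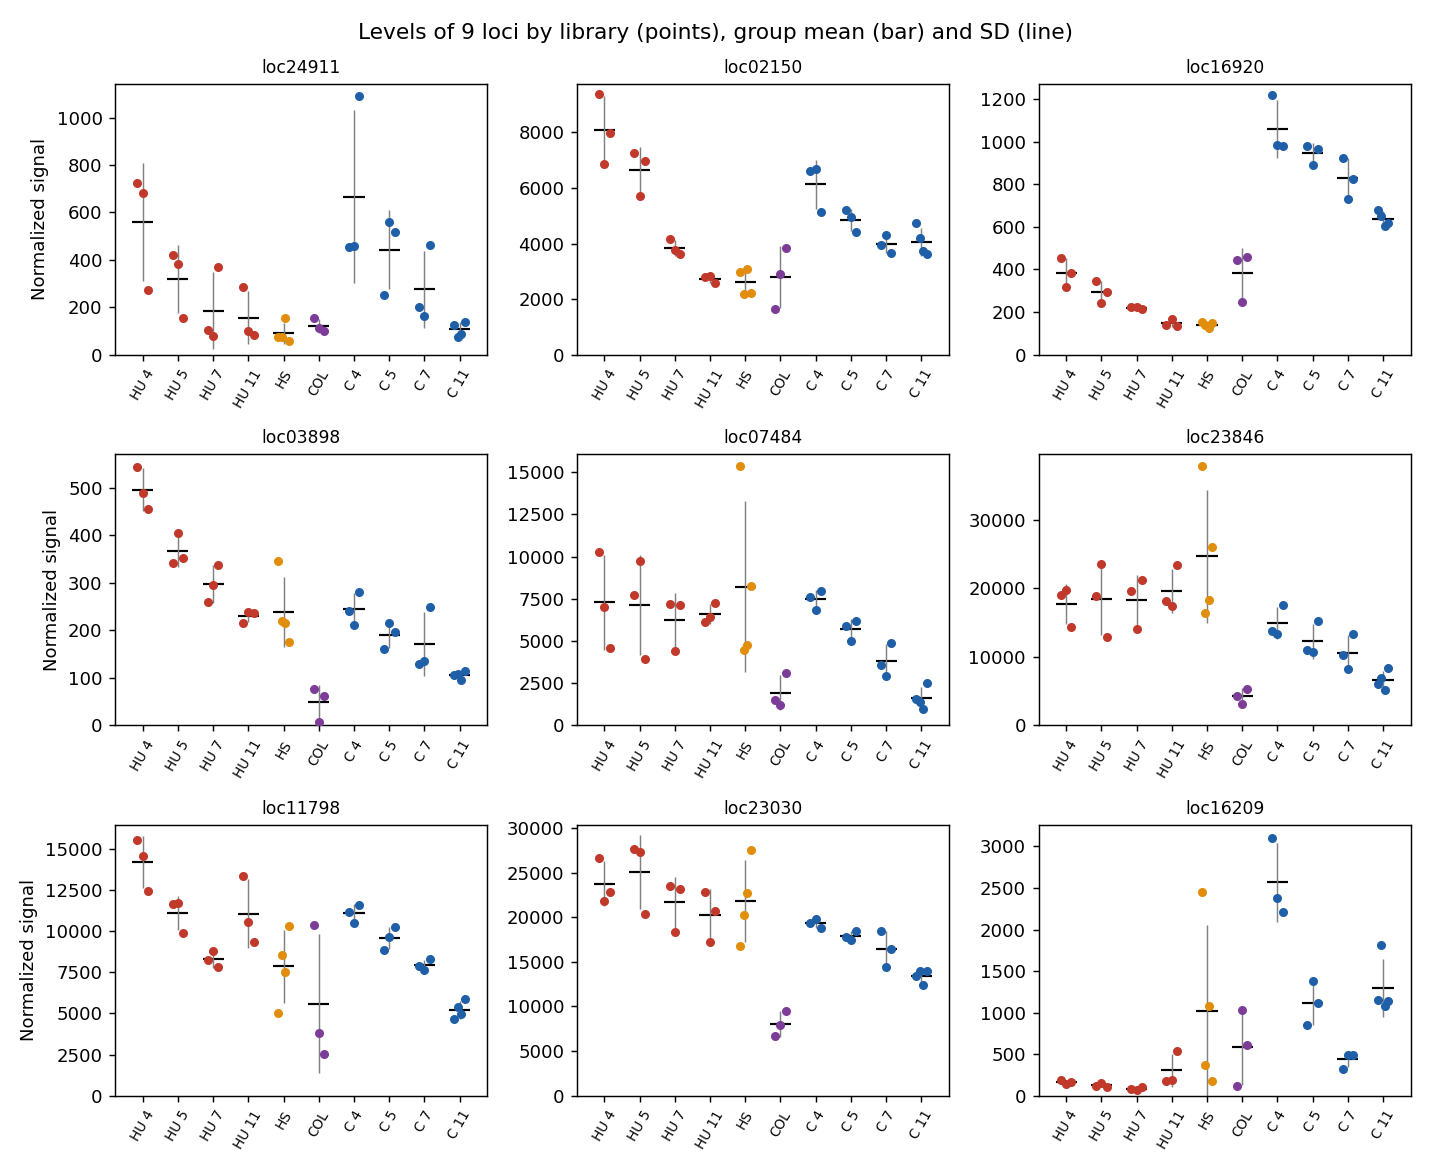
Signal per library (vertical axis) by group (horizontal axis) for 9 members; points are libraries, bars the group mean and lines the SD. In loc02150 the HU libraries go down with time to between 2562 and 2816, whereas in loc07484 the HU day 11 libraries, at 6142 to 7235, and all HS libraries lie above every control day 11 library.

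On day 5 the comparison of HU with control animals is between groups that the choice of members did not use. Of the 63 members, 9 (14.3%) were lower in HU animals and 9 (14.3%) higher, with a median log2 fold change of 0.12. Over all loci tested 13.0% were lower and 8.81% higher, and over loci of the level 18.4% were lower and 12.3% higher, so the members' shares were near the background. Among the 17 members called lower in HU animals with time, 5 were called lower than control on day 5 and 3 higher. These overlaps were not counted over all loci, so they are not read as a trait of the members. Locus loc16209 differed most, with 120.3, 155 and 106 in HU animals and 855, 1380.3 and 1120.5 in controls on day 5 (log2 fold change -3.14 ± 0.67, adjusted p = 0.00100). Its later values did not keep one order. In HU animals it held 78.2, 64.4 and 98.5 on day 7 and 180.5, 193 and 538 on day 11, in HS animals 2453, 366, 1077 and 176, and in controls 324, 488 and 494 on day 7 and 1157, 1812, 1079.6 and 1138 on day 11. The 4 HS libraries of loc16209 spread across the range of HU and control animals.

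Among members higher in HU animals on day 5 after loc08580 came loc16905, with 311, 564 and 499 in HU animals and 129.6, 233 and 176 in controls (log2 fold change 1.35 ± 0.34, adjusted p = 0.00475). Locus loc07396 held 449, 376 and 460.5 in HU animals and 182, 197 and 136 in controls (log2 fold change 1.31 ± 0.20, adjusted p = 1.49e-05). Locus loc21947 held 1711, 1533 and 1784 in HU animals and 511, 1189.7 and 584 in controls (log2 fold change 1.14 ± 0.29, adjusted p = 0.00445). None of these 3 pairs of groups overlapped. In HU animals loc21947 did not pass the test with time, at 1893, 2236 and 1972 on day 11 and 2138, 2074 and 1909.8 on day 4 (log2 fold change 0.01, adjusted p = 0.996).

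Set against the controls of the same day, of which days 4, 7 and 11 entered the selection, the median member in HU animals was 0.992 times control on day 4, 1.08 times on day 5, 1.12 times on day 7 and 1.23 times on day 11. The same medians over the loci of the level were 0.9765, 0.986, 0.9693 and 0.9735. On day 11, 42 of 63 members were higher in HU animals than in controls, beside 4625 of 10028 loci of the level. The control side of these ratios had to fall for a locus to be a member, so they are descriptive. HS animals stood at a median of 0.945 times control day 11, between 0.219 and 5.13 times, and COL animals at 1.107 times within the bounds of the rule. Over the loci of the level the medians were 0.989 in HS and 0.996 in COL animals.

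HS animals and HU animals of day 11 had been unfed for the same 11 days, and neither group entered the selection. Of 63 members, 4 (6.35%) were lower in HS animals and 0 higher, with a median log2 fold change of -0.17, beside 0.842% of all loci tested lower and 1.91% higher, and 1.13% lower and 2.98% higher over loci of the level. At an unadjusted p under 0.05, 14 members were lower and 3 higher, beside 666 and 1262 of the 10028 loci of the level. DESeq2 called 7 members lower and 0 higher, beside 263 and 631 of 25130 loci. The count of members lower by the edgeR test was 0 without HU day 11 replicate B or C and 1 without HS replicate B or C. Locus loc22046 held 767, 703, 751 and 453 in HS animals and 1197, 1221 and 1176 in HU animals (log2 fold change -0.84 ± 0.18, adjusted p = 0.0136). The other 3 were loc08580 (log2 fold change -0.92 ± 0.25, adjusted p = 0.0428), loc15812 (-0.83, adjusted p = 0.0273) and loc13405 (-0.52, adjusted p = 0.0407). Locus loc15812 held 851, 770.2, 632 and 881 in HS animals and 1514, 1247 and 1422 in HU animals.

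The loci whose log2 signal ran closest to that of loc23030 over the 13 control libraries were loc02326 (Pearson r = 0.978), loc24079 (0.975) and loc14476 (0.973), and none of the 3 is a member. Locus loc02326 averaged 3843 on control day 11 and 8272 on control day 4, and loc14476 averaged 5271 on day 11 and 9779 on day 4. Locus loc24079 averaged 17778.5 on control day 11 and 33600 on control day 4. All 3 lost signal over the control series by enough to meet the ratio. They were left out by the colchicine bound: the colchicine mean was 0.00834 times the control day 11 mean in loc02326, 0.150 times in loc24079 and 0.0637 times in loc14476.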

How the data were processed

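Polyadenylated RNA of central body columns was sequenced with a directional TruSeq kit, per the labels' protocols. The submitters' processing notes name cutadapt 1.11, Salmon 0.7.2 and DESeq2. The deposited table of estimated counts holds whole numbers for 79774 sequences. A second deposited table holds a normalized signal for 31594 of them, which equals the authors' count times 1 constant per library (0.669 to 2.80). The genome build is not given in the sources used here. Values were summed over the sequences whose names share a locus number.

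Printed levels are the normalized signal, with the mean and SD over libraries. Tests used edgeR 4.0.16 in R 4.3.3 on the summed counts: TMM scaling, filterByExpr with a minimum count of 10, 1 mean for each of the 10 groups over all 32 libraries, the robust quasi-likelihood F-test, and Benjamini-Hochberg adjustment over 17107 loci, with a call at an adjusted p under 0.05. SE is the log2 fold change divided by the square root of F. Counts of a locus are sums of estimates, so reads shared by near-identical sequences may be divided unevenly. The scripts were tested on simulated data.

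Comparisons tested were those that contrast no library used to choose the members. They were HU day 11 and HU day 7 over HU day 4, HU day 5 over control day 5, and HS over HU day 11. The spread of each locus was estimated over all 32 libraries, those used to choose the members included. The p-values are thus not fully independent of the choice. Loci of the level are those with a control day 4 mean of at least 130. The members, lists and tests were chosen with earlier results of these data known. Loci were named by rule: the 6 highest members, the 5 lowest control ratios, the 5 largest called changes with time in HU animals, the 3 largest each way on day 5, the 2 largest of HS over HU, the members nearest the thresholds, the 2 nearest to no change in HU animals, and the 3 loci most like the highest member; loc22855, loc15812, loc13405 and loc15495 were named after their values were seen. Alternatives were other scaling, DESeq2 1.42.0, no filter, only the compared groups, a replicate block, subsets of libraries, and other bounds of the rule.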

Additional observations from a re-analysis of the deposited data

Results flagged for a closer look

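In 2 groups of 4 libraries, 1 library stood apart by Dixon's criterion; 48 such groups were examined, where chance alone gives 2.4. Locus loc24911 had a signal of 154 in HS replicate C, against 58.2 to 73.9 in the other HS libraries, a gap of 0.837 of the group's range. Locus loc16209 had 1812 in control day 11 replicate B, against 1079.6 to 1157 in the other libraries, a gap of 0.895 of the range.

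In 3 members every HU day 11 library lay above every HU day 4 library, while the controls went the other way, as the choice of members requires. This is 4.76% of members, beside 14.3% of loci with a control day 4 mean of at least 130; the test called 3.52% of those loci higher. In 30 members (47.6%) every HU day 11 library lay below every HU day 4 library, beside 22% of those loci; the test called 8.46% of them lower. The ratio of day 11 to day 4 was 2.12 in HU animals and 0.636 in controls for loc15495, 1.251 and 0.570 for loc15812, and 1.71 and 0.5998 for loc22648. The difference between HU and control animals was not tested. Between HU day 11 and HU day 4 the edgeR log2 fold change was 1.10 ± 0.35 (SE, adjusted p = 0.0517) for loc15495, with 176, 175 and 238 on HU day 11 against 90.7, 92.7 and 94.5 on HU day 4. It was 0.79 ± 0.27 (adjusted p = 0.0685) for loc22648 and 0.34 ± 0.22 (adjusted p = 0.457) for loc15812.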

How the results depend on the processing

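Of the log2 fold changes of named loci, those called kept their sign in all 324 alternative values (0 changes). Those not called changed sign in 54 of 1044, among them loc07484 between HU day 11 and day 4. The members' median log2 fold change for HU day 5 over control day 5, 0.12, was -0.05 with replicates B, C and D alone. Between HU day 11 and HU day 4, 1433 loci were called, and 2332 without both shallow colchicine libraries. Between HU day 7 and day 4, 994 loci were called, 1814 without those libraries, 544 with replicates B, C and D alone, and 564 to 809 without single libraries. For HS over HU day 11, 471 loci were called, 1084 without the shallow colchicine libraries, 894 with DESeq2, 236 with no filter, 26 with the compared groups only, and 35 to 933 without single libraries. Members lower on HU day 11 numbered 17, 9 with replicates B, C and D alone and 12 to 18 without single libraries; members higher numbered 0, but 2 with DESeq2, 1 with the compared groups only, 1 with the replicate block, 2 without the shallow colchicine libraries, 1 with sequences of the normalized table only, and 0 to 1 without single libraries. Members lower on HU day 7 numbered 9, but 18 with the compared groups only and 18 without the shallow colchicine libraries. Members lower in HS animals numbered 4, but 7 with DESeq2, 2 with no filter, 1 with the compared groups only, 8 with replicates B, C and D alone and 0 to 6 without single libraries. In all 14 alternatives, 7 of the 17 members called between HU day 11 and day 4 were called, 4 of 9 for HU day 7 and 14 of 18 for HU day 5; for HS over HU day 11, 0 of 4 were called in all 15. A ratio of at most 0.6 left 16 members, and TMM scaling gave 82, of which 60 were shared; leaving out single libraries gave 54 to 94, of which 45 to 63 were shared. Libraries with the same replicate letter did not deviate together throughout (r from -0.044 to 0.164), and letters were not taken as pairs. Between HU day 11 and HU day 4, however, each library deviated most like that of its own letter (r from 0.010 to 0.103). With a replicate block 1663 loci were called between HU day 11 and day 4 and 1208 for HU day 7. The block gave 4115 for HU day 5 and 438 for HS, with 17 members lower for HU day 11. The causes were not tested. Fewer counts in 2 colchicine libraries limit the precision of low values there.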
